A study of Mus musculus with 33 samples.

Results

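The 7 genes followed here belong to megakaryocytes and platelets: Pf4, Ppbp, Gp9, Gp1bb, Itga2b, Itgb3 and Vwf. They were chosen by name, as the rows of the 4 deposited expression tables that carry these symbols, and all 7 of 7 were found among the 38899 genes that the tables share. The series holds 33 RNA-seq libraries of cells sorted by flow cytometry from the bones of adult C57BL/6 mice aged 8 to 12 weeks, in 11 groups of 3. All values are FPKM, counts of fragments scaled to gene length and to a divisor for each library. That divisor was not depth alone: it ran from 0.849 (BMC replicate 1) to 1.477 (LSK replicate 1) times the gene-assigned reads. Levels of different genes can be set side by side on the FPKM scale only roughly, since the gene length used may differ from that of the transcripts present.

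The first table holds 5 groups. Irradiated bone EC and Bone EC are GFP-positive endothelial cells of femur and tibia from Cdh5-mTnG mice, in which the reporter marks cells that have used the Cdh5 promoter; the irradiated mice received 9 Gy and the others no treatment. LSK (lineage-negative, Sca1 and cKit positive stem and progenitor cells), Lin- (lineage-negative cells) and BMC (whole marrow cells) came from untreated wild-type mice. The second table holds Vav1 DTX EC and Vav1 control EC, GFP-positive cells which the labels describe alike: mice carrying Vav1-Cre, R26-DTR and Cdh5-mTnG, given diphtheria toxin. The titles and column names alone tell them apart, and Vav1 is a promoter used mainly by blood cells. The third table sets Apln+ EC, GFP-positive cells of tamoxifen-treated Apln-CreERT2 R26-mTmG mice, beside Diaphysis EC, GFP-positive cells from the femoral shaft of untreated Cdh5-mTnG mice. The fourth sets 9Gy1D EC, Tomato and GFP double-positive marrow cells of Cdh5-mTnG mice given 9 Gy, beside Esm1+ EC, double-positive cells of tamoxifen-treated Esm1-CreER R26-mTmG mice. These last comparisons therefore differ in genotype as well as treatment, and the time between irradiation and sorting is not stated in the labels for either irradiated group. Each table was normalized on its own, so groups were compared only within a table. One test spans the first and second tables, and it sets the difference formed within each beside the other.

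Megakaryocytes are the large marrow cells that shed platelets into sinusoids, the thin-walled vessels of the marrow. Platelets carry 2 receptor complexes that start and complete a clot: GPIb-IX-V, of which Gp9 and Gp1bb encode subunits and which binds von Willebrand factor, and the fibrinogen receptor, an integrin made of the chains encoded by Itga2b and Itgb3. Their alpha granules store the chemokines platelet factor 4 (Pf4) and pro-platelet basic protein (Ppbp), together with von Willebrand factor (Vwf). Vwf is also made by endothelial cells, which keep it in Weibel-Palade bodies, so it is the member that a sorted endothelial library could hold by itself. Itga2b and Vwf are in addition used to mark stem cells biased towards the platelet lineage.

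In the GRCm38 build with GENCODE vM21 annotation, the protein-coding genes Ppbp (chr5:90768518-90770063) and Pf4 (chr5:90772435-90773383) are neighbours on the plus strand, with 2371 bases between the end of Ppbp and the start of Pf4. Gp9 (chr6:87778072-87779768), Vwf (chr6:125546774-125686679) and Itgb3 (chr11:104608000-104670476) also lie on the plus strand. Itga2b (chr11:102453297-102470122) and Gp1bb (chr16:18620317-18622403) lie on the minus strand. Exons of Gp1bb overlap those of Sept5 and of the predicted gene Gm49601 on the same strand, so its reads are uncertain. The RefSeq promoter table for GRCm38.p6, with 250 bases before and 50 after each start, held 5 of the 7 members. The 4 shown are the adjacent chemokine pair, whose ratio within a library differed widely between groups, and the promoters of a GPIb-IX-V subunit and of the fibrinogen receptor chain Itga2b. Capitals mark GATAA, a core bound by GATA factors, and GGAAG, a core bound by ETS factors, searched on both strands, so that TTATC and CTTCC are capitalised too.
Ppbp promoter, chr5:90768268-90768567, plus strand: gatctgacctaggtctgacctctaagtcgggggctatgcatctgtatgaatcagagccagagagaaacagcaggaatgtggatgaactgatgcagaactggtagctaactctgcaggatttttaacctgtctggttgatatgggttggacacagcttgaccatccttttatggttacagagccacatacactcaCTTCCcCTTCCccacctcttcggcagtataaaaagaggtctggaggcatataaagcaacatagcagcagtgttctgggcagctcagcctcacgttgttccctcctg
Pf4 promoter, chr5:90772185-90772484, plus strand: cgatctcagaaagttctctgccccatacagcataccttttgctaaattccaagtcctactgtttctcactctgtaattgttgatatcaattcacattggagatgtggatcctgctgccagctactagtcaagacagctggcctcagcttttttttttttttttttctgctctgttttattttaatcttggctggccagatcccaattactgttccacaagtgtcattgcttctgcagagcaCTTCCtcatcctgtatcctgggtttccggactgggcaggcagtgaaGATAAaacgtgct
Gp9 promoter, chr6:87777820-87778119, plus strand: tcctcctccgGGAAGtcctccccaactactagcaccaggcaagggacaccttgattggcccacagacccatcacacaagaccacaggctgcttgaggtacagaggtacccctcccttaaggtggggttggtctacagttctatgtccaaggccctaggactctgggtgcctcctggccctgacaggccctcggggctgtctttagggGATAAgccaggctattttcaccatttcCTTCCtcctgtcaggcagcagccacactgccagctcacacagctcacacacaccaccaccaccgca
Itga2b promoter, chr11:102469834-102470133, minus strand: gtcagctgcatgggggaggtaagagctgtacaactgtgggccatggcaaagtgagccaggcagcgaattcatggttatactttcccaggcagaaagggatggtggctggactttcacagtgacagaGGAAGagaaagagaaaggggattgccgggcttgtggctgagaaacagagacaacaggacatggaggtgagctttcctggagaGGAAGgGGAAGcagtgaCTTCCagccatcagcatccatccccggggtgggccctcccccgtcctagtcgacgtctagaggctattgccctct
GGAAG or its complement occurred in all 5 member promoters of the table, against 71.3% of 32544 promoters of the same length. GATAA occurred in 2 of the 5, Pf4 and Gp9, against 25.3% of all promoters, and both cores together in the same 2, against 17.1%. No GATAA core was found in the windows of Ppbp, Itga2b and Gp1bb. TGTGGT, a core of RUNX factors, was in the Gp9 window, against 16.7% of all promoters. These are matches of letters and not measured binding.

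Depth, recovered from the deposited values, ran between 1.55 and 12.29 M gene-assigned reads per library, lowest in LSK and highest in Vav1 DTX EC. The sorted labels held in part: Cdh5, a defining endothelial gene, was 180 to 200 FPKM in irradiated bone EC and 64.1 to 93.7 in bone EC, against 0.0906 to 0.329 in LSK, but neutrophil and erythroid genes were also high in the endothelial libraries. The sum of 7 neutrophil genes was 43841 to 44724 FPKM in bone EC, 928 to 4270 in irradiated bone EC and 80318 to 106430 in BMC. On the scales of their own tables it was 80998 to 90490 in Vav1 control EC and 74127 to 81501 in Esm1+ EC. Cdh5 was 18.2 to 28.5 FPKM in Vav1 control EC and 14.1 to 20.6 in Esm1+ EC. Lin- replicate 3 stood apart with an erythroid sum of 59838 FPKM, against 1281 and 1416 in replicates 1 and 2. Esm1+ replicates 1 and 2 differed far less than any other pair of replicates, with a chi-square of 1.386 per gene against 3.129 to 181.896 in the other 32 pairs, although the difference still exceeded sampling noise. The labels do not say whether replicates are separate mice, so p-values measure the spread between these samples, which may be technical.

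Lineage-negative marrow carried the highest level of all 7 genes in the first table. Pf4 stood at 403, 654 and 443 FPKM in the 3 Lin- libraries, and at 5.51, 11.2 and 13.8 FPKM in BMC. Ppbp stood at 180, 343 and 326 FPKM in Lin-, and at 0.640, 0.809 and 4.45 FPKM in BMC. The groups did not come near each other for either chemokine. Vwf was 16.5, 25.1 and 30.2 FPKM in Lin-, and 1.09, 0.815 and 0.862 FPKM in BMC. Lin- and BMC shared a library kit, and limma on log2(FPKM + 1), with Benjamini-Hochberg adjustment over 12428 genes and a threshold of 0.05, called all 7 members higher in Lin-; 29.1% of all genes tested were called higher and 28.4% lower. The groups lay apart for all 7, as for 33.8% of genes with Lin- higher. Genes were tested if they reached 1 FPKM in 3 or more libraries of a comparison. Ppbp and Vwf met this filter only with the Lin- libraries counted, which favours a higher call. The log2 differences were 6.75 ± 0.50 (SE) for Ppbp, 5.54 ± 0.34 for Pf4, 3.93 ± 0.28 for Gp9, 3.66 ± 0.22 for Vwf, 3.60 ± 0.18 for Itga2b, 2.86 ± 0.30 for Gp1bb and 1.85 ± 0.28 for Itgb3, with adjusted p between 2.1e-05 and 0.0015. In bulk libraries such as these, fewer cells of a type and less RNA per cell cannot be told apart.

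**Figure D1:**
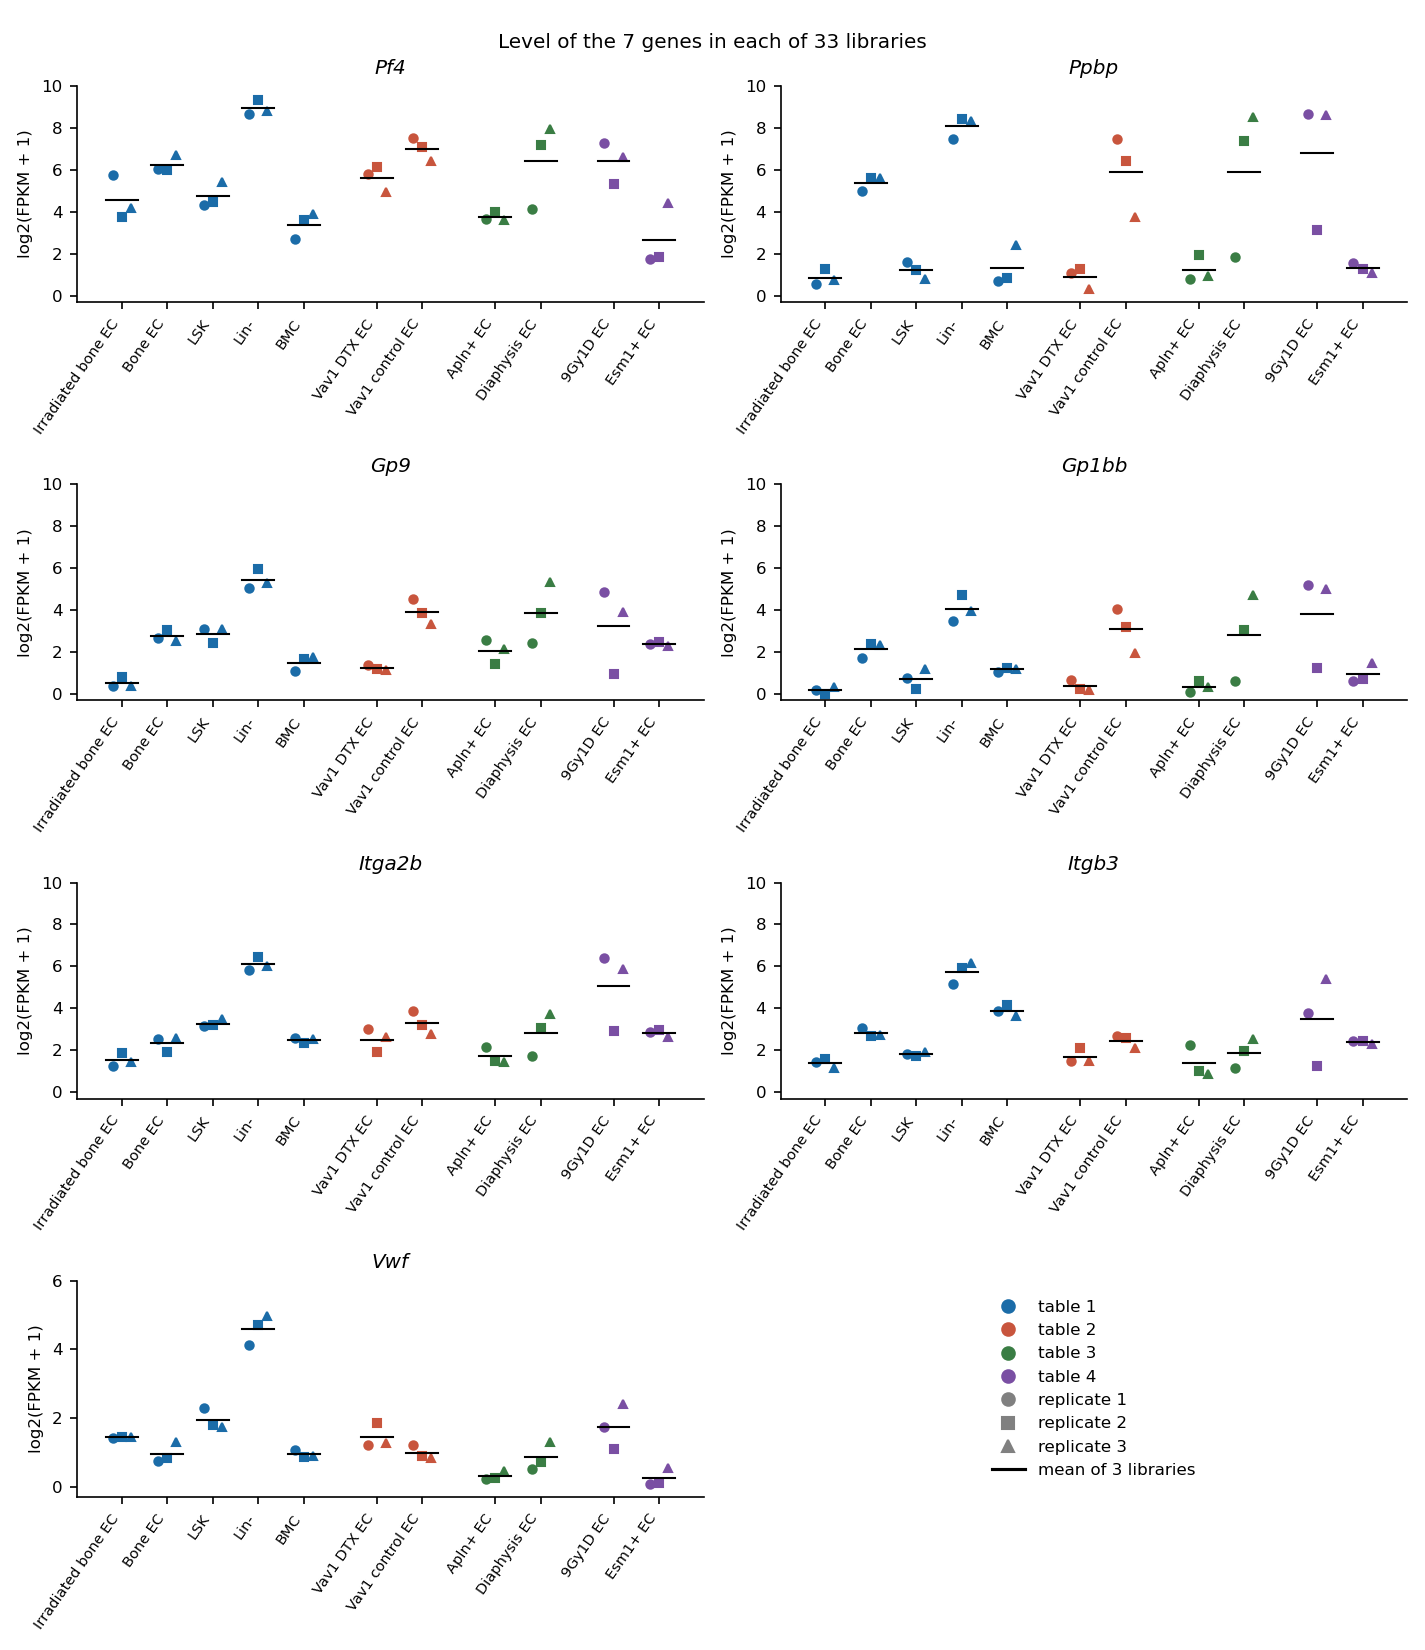
Level of each member, as log2(FPKM + 1), in every library; symbols are replicates, colours the deposited table, and black lines the mean of 3 libraries. Lin- holds the highest level of all 7 genes within the first table, and Diaphysis EC replicate 1 and 9Gy1D EC replicate 2 lie far below the other libraries of their groups for Ppbp.

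The order below Lin- differed between members. For Pf4 it ran bone EC (76.8 ± 22.7 FPKM, SD, n = 3), then irradiated bone EC (27.8 ± 22.3) and LSK (27.7 ± 12.6), which overlapped, then BMC (10.2 ± 4.23), whose highest library passed the lowest irradiated one. For Ppbp it ran bone EC (42.0 ± 9.45), then BMC, LSK and irradiated bone EC, the last 3 overlapping, with no library of them above the 4.45 FPKM of BMC replicate 3. For Itga2b it ran LSK (8.73 ± 1.21), then BMC (4.67 ± 0.483) and bone EC (2.82 to 4.95 FPKM), which overlapped, then irradiated bone EC (1.93 ± 0.673). Itgb3, which other integrins also use and which monocytes and endothelial cells make, was second highest in BMC (14.1 ± 2.87) and lowest in irradiated bone EC (1.69 ± 0.391). Vwf was the only member for which LSK and then irradiated bone EC followed Lin-: 2.89 ± 0.865 FPKM in LSK and 1.71 ± 0.0434 in irradiated bone EC, then 0.978 ± 0.420 in bone EC and 0.923 ± 0.147 in BMC, the last 2 overlapping.

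Stem and progenitor cells held less of every member than Lin- cells did. All 7 members were lower in LSK (25.5% of 13875 genes were called lower), from -6.88 ± 0.30 on the log2 scale for Ppbp to -2.55 ± 0.28 for Gp9, with adjusted p of at most 0.00028; Vwf differed by -2.66 ± 0.26. All 7 lay apart, as 29.7% of genes did with LSK lower. Ppbp rested on 5, 4 and 2 reads in the LSK libraries. Ppbp and Gp1bb did not reach 1 FPKM in all 3 LSK libraries. They met the filter only with the Lin- libraries counted, which favours a lower call. The library kit differed between LSK and Lin-, and kit and population cannot be told apart there.

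Untreated bone endothelium carried Pf4, Ppbp, Gp9 and Gp1bb at levels between those of Lin- and BMC. Against Lin-, all 7 members were lower in bone EC (30.8% of 13255 genes were called lower), and the groups lay apart for all of them, as for 33.8% of genes. Itga2b differed by -3.75 ± 0.24 and Vwf by -3.64 ± 0.26, the largest of the 7, and Gp1bb by -1.90 ± 0.33. Vwf met the filter of 1 FPKM in 3 libraries only with the Lin- libraries counted, which favours a lower call. Bone EC and LSK were made with one kit, and there Pf4 (1.48 ± 0.31), Ppbp (4.19 ± 0.24), Itgb3 (0.98 ± 0.17) and Gp1bb (1.41 ± 0.29) were higher in bone EC, where 29.5% of 14321 genes were called higher. Itga2b (-0.93 ± 0.21) and Vwf (-0.97 ± 0.23) were lower in bone EC, where 30.6% were, and Gp9 did not pass (-0.13 ± 0.23, adjusted p = 0.63). With TPM scaling the Itgb3 call was lost (0.49, adjusted p = 0.067) and Gp9 was called lower in bone EC (-0.81, adjusted p = 0.016). The 6 called members lay apart, as did 32.1% of genes with bone EC higher and 34.4% with bone EC lower. Ppbp and Gp1bb met the filter only with the bone EC libraries counted, which favours a higher call. Vwf met it only with the LSK libraries counted, which favours a lower call in bone EC. Against BMC, Pf4, Ppbp, Gp9 and Gp1bb were higher in bone EC (35.8% of 13194 genes called higher), Itgb3 was lower (-1.07 ± 0.18; 34.6% called lower) and Itga2b did not pass (-0.16 ± 0.19, adjusted p = 0.49, with the sign turned under TPM scaling, which sums every library to the same total, 0.20); the kit differed here as well as against Lin-. The 5 called members lay apart, as did 37.9% of genes with bone EC higher and 36.8% with bone EC lower. Against BMC, too, Ppbp met the filter only with the bone EC libraries counted, which favours a higher call. Vwf was below the filter in this comparison, with 0.681, 0.794 and 1.46 FPKM in bone EC and 1.09, 0.815 and 0.862 in BMC, which overlapped. The ratio of Vwf to Cdh5 was 0.00916 to 0.0156 in bone EC and 1.54 to 9.45 in Lin-.

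After 9 Gy, 6 of the 7 members fell in bone endothelium. Ppbp, the alpha granule chemokine, was 0.475, 1.44 and 0.721 FPKM in irradiated bone EC, from 2, 5 and 3 reads, against 31.1, 47.5 and 47.5 FPKM in bone EC. Every irradiated library lay far below every untreated one. Pooled over libraries, Ppbp was 49.5-fold lower in irradiated bone EC (95% counting interval 26.7 to 104, exact), and the log2 difference was -4.53 ± 0.25 (adjusted p = 0.00016). The receptor subunit Gp9 was 0.316, 0.766 and 0.320 FPKM in irradiated bone EC and 5.39, 7.26 and 4.76 FPKM in bone EC. Gp1bb was at 0.136, 0 and 0.276 FPKM in irradiated bone EC, from 3 reads in all, and at 2.33, 4.17 and 4.10 FPKM in bone EC. The groups were far apart for both subunits, with log2 differences of -2.21 ± 0.21 for Gp9 (adjusted p = 0.00038) and -1.97 ± 0.22 for Gp1bb (adjusted p = 0.00065). By counts, Gp1bb was 24.1-fold lower in irradiated bone EC, with an interval of 7.89 to 120. Both subunits were below 1 FPKM in every irradiated library. They entered the test through the bone EC libraries alone, and such a filter favours a lower call. Ppbp was below 1 FPKM in irradiated replicates 1 and 3, so it too met the filter only with the bone EC libraries counted.

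The remaining members moved less. Itgb3 was 1.74, 2.05 and 1.28 FPKM in irradiated bone EC and 7.41, 5.37 and 5.65 FPKM in bone EC (-1.41 ± 0.18, adjusted p = 0.0011). Itga2b was 1.36, 2.68 and 1.76 FPKM in irradiated bone EC and 4.76, 2.82 and 4.95 FPKM in bone EC (-0.82 ± 0.25, adjusted p = 0.033). The Itga2b groups lay just apart, and its call was lost without bone EC replicate 1 or 3, or without irradiated replicate 1 or 3 (adjusted p 0.074 to 0.11), with TPM scaling (-0.75, adjusted p = 0.098) and with no filter (adjusted p = 0.068). Pf4 was 53.4, 12.7 and 17.3 FPKM in irradiated bone EC and 64.4, 63.0 and 103 FPKM in bone EC, a log2 difference of -1.67 ± 0.49 (adjusted p = 0.031). Irradiated replicate 1 came close to the lowest bone EC library, and the Pf4 call was lost without any 1 of the bone EC libraries or of irradiated replicates 2 and 3 (adjusted p 0.066 to 0.10), and with no filter (adjusted p = 0.063). All 6 were called lower where 19.4% of 13044 genes were, and lay apart where 24.6% did in that direction. Ppbp, Gp9 and Gp1bb among them met the filter only with the bone EC libraries counted, which favours a lower call.

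Vwf did not fall, and its difference did not pass in either direction. It was 1.66, 1.72 and 1.74 FPKM in irradiated bone EC, from 89 to 108 reads per library, against 0.681, 0.794 and 1.46 FPKM in bone EC, from 39 to 85 reads. All irradiated libraries lay above all untreated ones, as they did for 29.6% of all genes tested, with a difference of 0.47 ± 0.19 (adjusted p = 0.081). The difference passed without bone EC replicate 3 (0.64, adjusted p = 0.031), with TPM scaling (0.84, adjusted p = 0.035) and with voom on recovered reads (0.77, adjusted p = 0.040). Cdh5 rose alongside, and the ratio of Vwf to Cdh5 was 0.00871 to 0.00921 in irradiated bone EC and 0.00916 to 0.0156 in bone EC.

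Markers of other cells moved with these changes. All 6 erythroid genes, 7 of 7 neutrophil genes and 5 of 5 B lymphoid genes fell in irradiated bone EC, where 19.4% of all genes tested did. All 12 pan-endothelial genes rose, where 22.5% of all genes did. The summed erythroid level was 195 to 567 FPKM in irradiated bone EC and 25331 to 26890 in bone EC, and the pan-endothelial sum 4854 to 6671 in irradiated bone EC and 1649 to 2133 in bone EC. Ptprc, the pan-leukocyte gene, was 11.4 to 18.6 FPKM in irradiated bone EC and 43.3 to 72.7 in bone EC. The platelet receptor genes Gp6 and Treml1 were listed at 0 in all 3 irradiated libraries. The monocyte and macrophage sum was 344 FPKM in irradiated replicate 1, the library with the highest Pf4, and 139 and 144 in replicates 2 and 3, against 307 to 330 in bone EC. The ratio of Pf4 to C1qb, a macrophage gene, was 0.128 to 0.188 in irradiated bone EC and 0.438 to 0.720 in bone EC. In the second table this ratio went the other way, at 1.39 to 5.54 in Vav1 DTX EC and 0.704 to 1.06 in Vav1 control EC. The part of these cell markers in the members' changes was not tested.

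**Figure D2:**
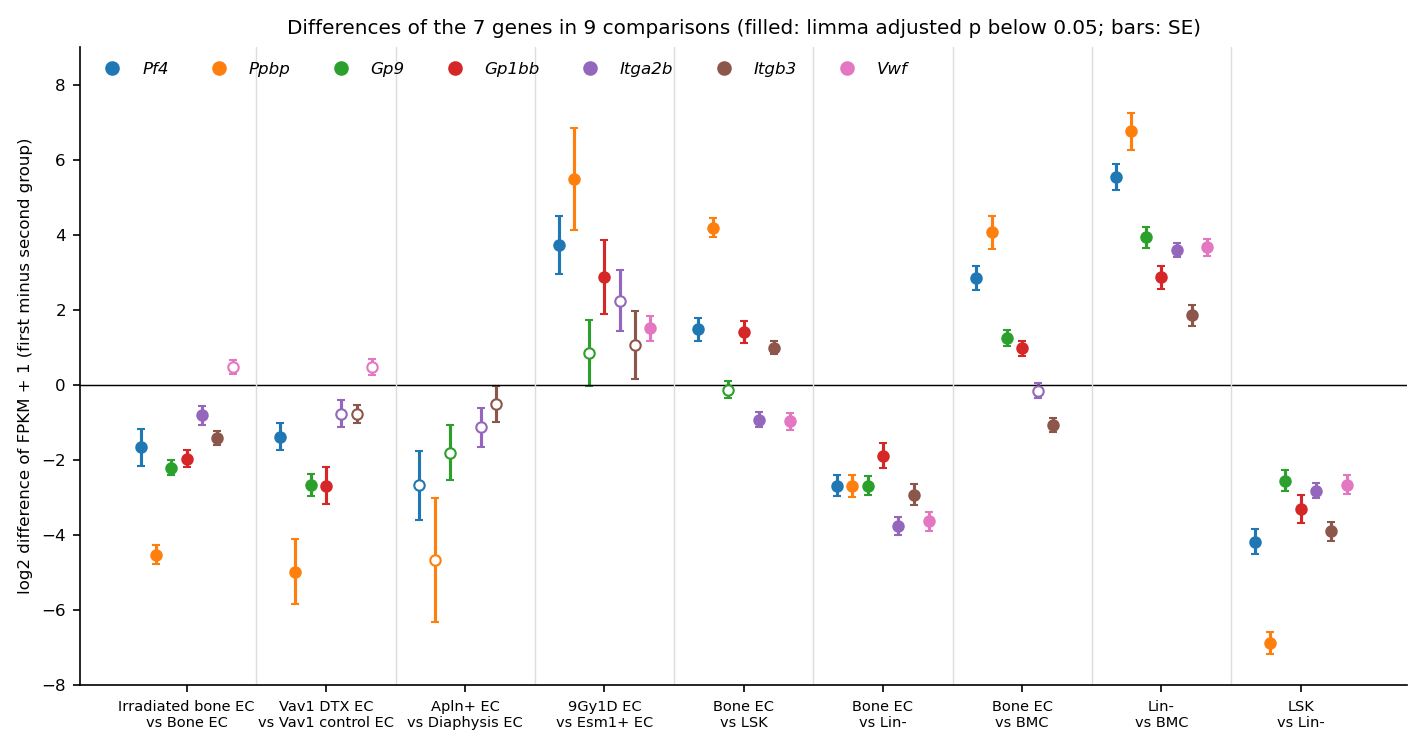
Log2 differences of the 7 members, first group minus second, in 9 comparisons; bars are standard errors and filled circles passed an adjusted p of 0.05. Vwf lies above 0 in the irradiation and the Vav1 DTX comparisons, at 0.47 and 0.46, and the other 6 members lie below 0 in both.

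In the comparison of Vav1 DTX EC with Vav1 control EC, Ppbp, Gp9, Gp1bb and Pf4 fell. Ppbp was 1.14, 1.43 and 0.271 FPKM in Vav1 DTX EC and 175, 84.7 and 12.7 FPKM in Vav1 control EC (-4.98 ± 0.86, adjusted p = 0.0064). Gp9 was 1.62, 1.31 and 1.20 FPKM in Vav1 DTX EC and 22.5, 13.6 and 9.14 FPKM in Vav1 control EC (-2.68 ± 0.29, adjusted p = 0.0010). Gp1bb was 0.615, 0.205 and 0.156 FPKM in Vav1 DTX EC and 15.7, 8.32 and 2.89 FPKM in Vav1 control EC (-2.69 ± 0.49, adjusted p = 0.0077). In all 3 genes the control libraries spread widely and replicate 3 was the lowest, yet it stayed above every DTX library. Pf4 kept more of its level: 55.7, 68.8 and 30.0 FPKM in Vav1 DTX EC and 182, 135 and 85.7 FPKM in Vav1 control EC (-1.38 ± 0.37, adjusted p = 0.032), a call lost without control replicate 1 or 2, or DTX replicate 1 or 3 (adjusted p 0.067 to 0.11), and with no filter (adjusted p = 0.069). These 4 members were called lower where 15% of 11664 genes were, and they and Itgb3 lay apart, as did 23.6% of genes with DTX lower. Gp1bb was below 1 FPKM in every DTX library, and Ppbp in DTX replicate 3. Neither met the filter of 1 FPKM in 3 libraries without the control libraries, which favours a lower call.

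The integrin chains and Vwf did not pass. Itgb3 was 1.80, 3.30 and 1.79 FPKM in Vav1 DTX EC and 5.50, 4.95 and 3.35 FPKM in Vav1 control EC (-0.77 ± 0.24, adjusted p = 0.051), and without DTX replicate 2 it passed (-0.98, adjusted p = 0.0071). Itgb3 also passed with voom on recovered reads (-0.93, adjusted p = 0.046), and limma without the trend put it at the threshold (adjusted p = 0.05). Itga2b was 7.10, 2.76 and 5.16 FPKM in Vav1 DTX EC and 13.7, 8.36 and 5.82 FPKM in Vav1 control EC, which overlapped (-0.77 ± 0.36, adjusted p = 0.16). Vwf was 1.316, 2.607 and 1.404 FPKM in Vav1 DTX EC and 1.30, 0.868 and 0.788 FPKM in Vav1 control EC. Its groups lay apart only by the narrow gap between 1.316 FPKM in DTX replicate 1 and 1.30 FPKM in control replicate 1, as 22.7% of genes tested lay apart with DTX higher, and the difference of 0.46 ± 0.21 had an adjusted p of 0.16. Here 6 of 6 erythroid, 5 of 5 B lymphoid and 3 of 3 monocyte and macrophage genes fell in Vav1 DTX EC. In either direction 0 of 7 neutrophil genes and 0 of 12 pan-endothelial genes were called, where 15% of all genes tested were lower and 11.3% higher. The erythroid sum was 971 to 1918 FPKM in Vav1 DTX EC against 26288 to 48939 in Vav1 control EC. The part of these cells in the members' differences was not tested.

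The irradiation difference and the Vav1 DTX difference (Vav1 DTX EC minus Vav1 control EC), each formed within its own table, were set against each other. The limma fit covered 12 libraries from 2 separately normalized tables. None of the 7 members passed, none had an unadjusted p under 0.05, and voom on recovered reads called none, where 26.7% of 13779 genes were called in either direction. The irradiation difference minus the Vav1 DTX difference was 0.01 ± 0.29 for Vwf, -0.04 ± 0.47 for Itga2b, -0.29 ± 0.68 for Pf4, 0.45 ± 0.99 for Ppbp, 0.47 ± 0.38 for Gp9, 0.72 ± 0.59 for Gp1bb and -0.64 ± 0.31 for Itgb3. With these standard errors, values that miss the threshold do not show that the 2 differences were equal. Without Vav1 control replicate 3, 1 member passed, Gp1bb (1.28, adjusted p = 0.046).

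Within a library, the ratio of 2 members does not depend on how the table was scaled. Pf4 to Ppbp was 8.85 to 112 in irradiated bone EC and 1.33 to 2.17 in bone EC, and it was 48.1 to 111 in Vav1 DTX EC and 1.04 to 6.74 in Vav1 control EC. The high ratios rested on few reads of Ppbp: 2, 5 and 3 in irradiated bone EC and 16, 16 and 3 in Vav1 DTX EC. The ratio in Lin-, the group with most of both transcripts, was 1.36 to 2.24, which overlapped that of bone EC. In LSK it was 9.58 to 55.3, on 2 to 5 reads of Ppbp per library. Vwf to Itga2b was 0.643 to 1.22 in irradiated bone EC and 0.143 to 0.294 in bone EC, and 0.185 to 0.945 in Vav1 DTX EC and 0.0949 to 0.135 in Vav1 control EC. Both pairs of groups lay apart. It was 0.290 to 0.470 in Lin-.

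**Figure D3:**
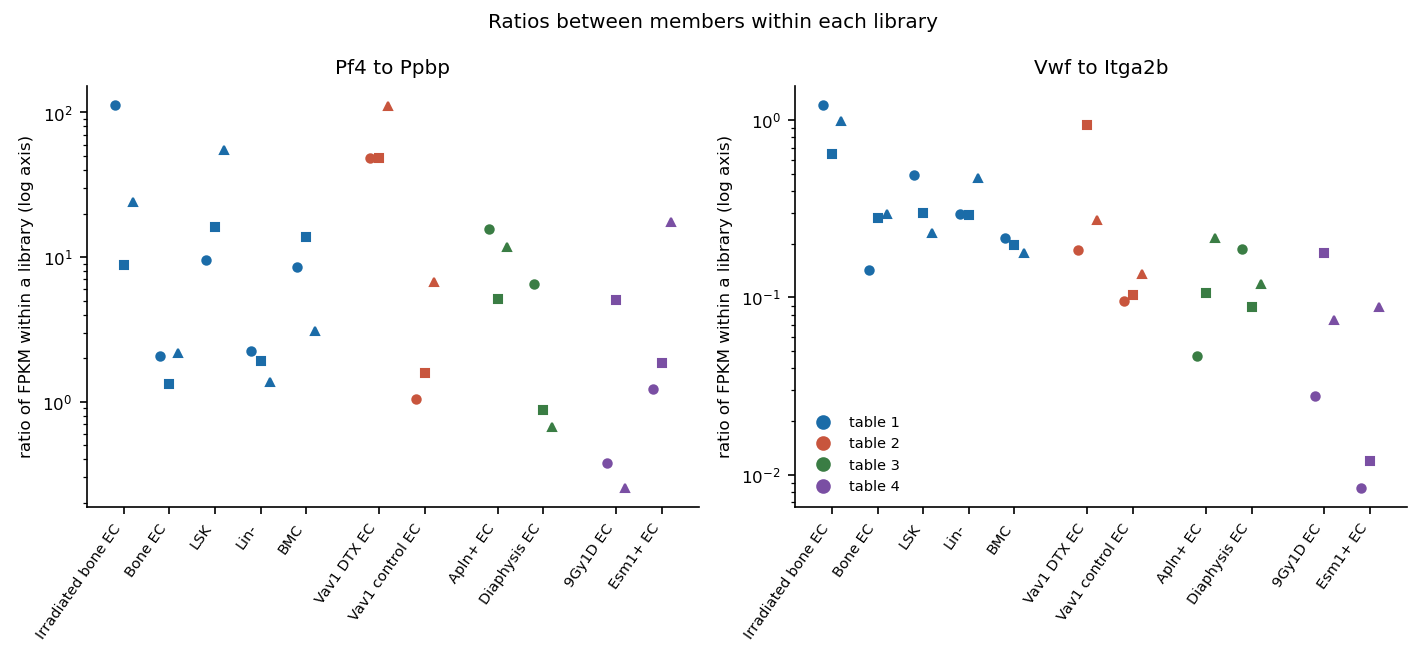
Ratio of Pf4 to Ppbp and of Vwf to Itga2b within each library, on log axes, by group. Both ratios are higher in irradiated bone EC than in bone EC and in Vav1 DTX EC than in Vav1 control EC, without overlap. Ppbp had 2 to 16 reads per library in irradiated bone EC and Vav1 DTX EC.

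Apln+ endothelium held little of the chemokines, but the diaphysis libraries it was set against disagreed among themselves. Pf4 was 11.5, 14.8 and 11.3 FPKM in Apln+ EC and 16.8, 145 and 245 FPKM in Diaphysis EC. Ppbp was 0.733, 2.90 and 0.955 FPKM in Apln+ EC and 2.59, 167 and 365 FPKM in Diaphysis EC. Diaphysis replicate 1 lay close to the Apln+ libraries for both genes, and replicates 2 and 3 far above them. With all 6 libraries none of the 5 members tested passed, 3 had an unadjusted p under 0.05, and voom called none; of 11889 genes tested, 7.49% were called in either direction and 4.64% lower. The differences were -4.68 ± 1.65 for Ppbp (adjusted p = 0.17), -2.68 ± 0.92 for Pf4 (0.16), -1.81 ± 0.72 for Gp9 (0.22), -1.13 ± 0.52 for Itga2b (0.28) and -0.50 ± 0.48 for Itgb3 (0.64). Without Diaphysis replicate 1, Ppbp (-6.71) and Pf4 (-3.82) passed, each with an adjusted p of 0.0080. Ppbp met the filter of 1 FPKM in 3 libraries only with diaphysis libraries counted, which favours a lower call.

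Gp1bb and Vwf did not pass the filter of 1 FPKM in 3 libraries there. Gp1bb was 0.0701, 0.537 and 0.274 FPKM in Apln+ EC and 0.550, 7.27 and 25.2 FPKM in Diaphysis EC. Vwf was 0.164, 0.195 and 0.379 FPKM in Apln+ EC and 0.432, 0.655 and 1.48 FPKM in Diaphysis EC. For both, all Apln+ libraries lay below all diaphysis ones, and so they did for Pf4. Among genes that passed the filter, which leaves out Gp1bb and Vwf, 13.3% lay apart in that direction. Diaphysis replicate 1, the low library, had a pan-endothelial sum of 2125 FPKM beside 2688 and 3237 in the others, and an erythroid sum of 22873 beside 16093 and 20877; their part in its low values was not tested. Apln+ replicate 1 stood apart from replicates 2 and 3, with a pan-endothelial sum of 1219 FPKM beside 5032 and 5716, a neutrophil sum of 134333 beside 51990 and 39866, and Ptprc at 103 beside 25.0 and 26.8. Without it 3989 genes in place of 890 were called, but no member.

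Set against Esm1+ EC, 9Gy1D EC held more of the members, in 2 of its 3 libraries by a wide margin. Ppbp was 410, 7.80 and 386 FPKM in 9Gy1D EC and 1.98, 1.45 and 1.15 FPKM in Esm1+ EC (5.48 ± 1.37, adjusted p = 0.016). Pf4 was 154, 39.5 and 97.8 FPKM in 9Gy1D EC and 2.44, 2.68 and 20.2 FPKM in Esm1+ EC (3.73 ± 0.77, adjusted p = 0.0075). Every 9Gy1D library lay above every Esm1+ library for both chemokines, and for Vwf, as for 27.6% of genes. Vwf was 2.32, 1.15 and 4.34 FPKM in 9Gy1D EC and 0.0534, 0.0814 and 0.463 FPKM in Esm1+ EC, where it rested on 6, 10 and 54 reads (1.51 ± 0.34, adjusted p = 0.010). Gp1bb was 35.9, 1.38 and 31.1 FPKM in 9Gy1D EC and 0.532, 0.625 and 1.83 FPKM in Esm1+ EC (2.88 ± 0.99, adjusted p = 0.049), and it overlapped. These 4 members were called higher where 20.6% of 11746 genes were. Vwf was below 1 FPKM in every Esm1+ library, and Gp1bb in Esm1+ replicates 1 and 2. Neither met the filter of 1 FPKM in 3 libraries without the 9Gy1D libraries, which favours a higher call.

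The other 3 were split by 9Gy1D replicate 2. Itga2b was 84.0, 6.52 and 57.9 FPKM in 9Gy1D EC and 6.34, 6.78 and 5.25 FPKM in Esm1+ EC. Itgb3 was 12.6, 1.402 and 41.1 FPKM in 9Gy1D EC and 4.48, 4.54 and 4.01 FPKM in Esm1+ EC. Gp9 was 28.0, 0.945 and 14.2 FPKM in 9Gy1D EC and 4.23, 4.67 and 3.90 FPKM in Esm1+ EC. Replicates 1 and 3 lay far above the Esm1+ libraries for all 3 genes, while replicate 2 lay among or below them. With all libraries the differences did not pass (2.24, 1.06 and 0.85, adjusted p 0.061 to 0.47). Itga2b passed with TPM scaling (2.56, adjusted p = 0.043), and without 9Gy1D replicate 2 all 7 members passed, Itga2b at 3.32 (adjusted p = 0.00047) and Itgb3 at 2.17 (adjusted p = 0.016) among them. The call of Gp1bb was lost under every leave-one-out fit except that one, and when Esm1+ replicates 1 and 2 were averaged into 1 sample (2.74, adjusted p = 0.12). The call of Ppbp was lost without 9Gy1D replicate 3 (4.59, adjusted p = 0.056) and with voom (6.22, adjusted p = 0.14), which called 2 members.

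The direction of Ppbp thus differed between the 2 irradiated endothelial groups, each against its own comparison group, and no test joins them because the tables and the comparison groups differ. The ratio of Pf4 to Ppbp was 0.375 and 0.253 in 9Gy1D replicates 1 and 3, below any library of Lin- or bone EC, and 5.06 in replicate 2. The ratio of Vwf to Itga2b was 0.0276 to 0.177 in 9Gy1D EC and 0.643 to 1.22 in irradiated bone EC. On the FPKM scales of 2 separately normalized tables, the erythroid sum was 12265 to 15393 FPKM in 9Gy1D EC and 195 to 567 in irradiated bone EC. In 9Gy1D EC, 5 of 6 erythroid, 5 of 7 neutrophil and 5 of 5 B lymphoid genes fell and 11 of 12 pan-endothelial genes rose relative to Esm1+ EC. Of all genes tested, 23.1% were called lower and 20.6% higher there. The erythroid and endothelial sums of 9Gy1D replicate 2 (12265 and 5696 FPKM) were like those of replicate 3 (12309 and 5071). Its B lymphoid sum was 9.77 FPKM, beside 31.5 and 16.9 in replicates 1 and 3, and its Ptprc 45.3 beside 74.6 and 37.7. The part of other cells in the low member values of replicate 2 was not tested.

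**Figure D4:**
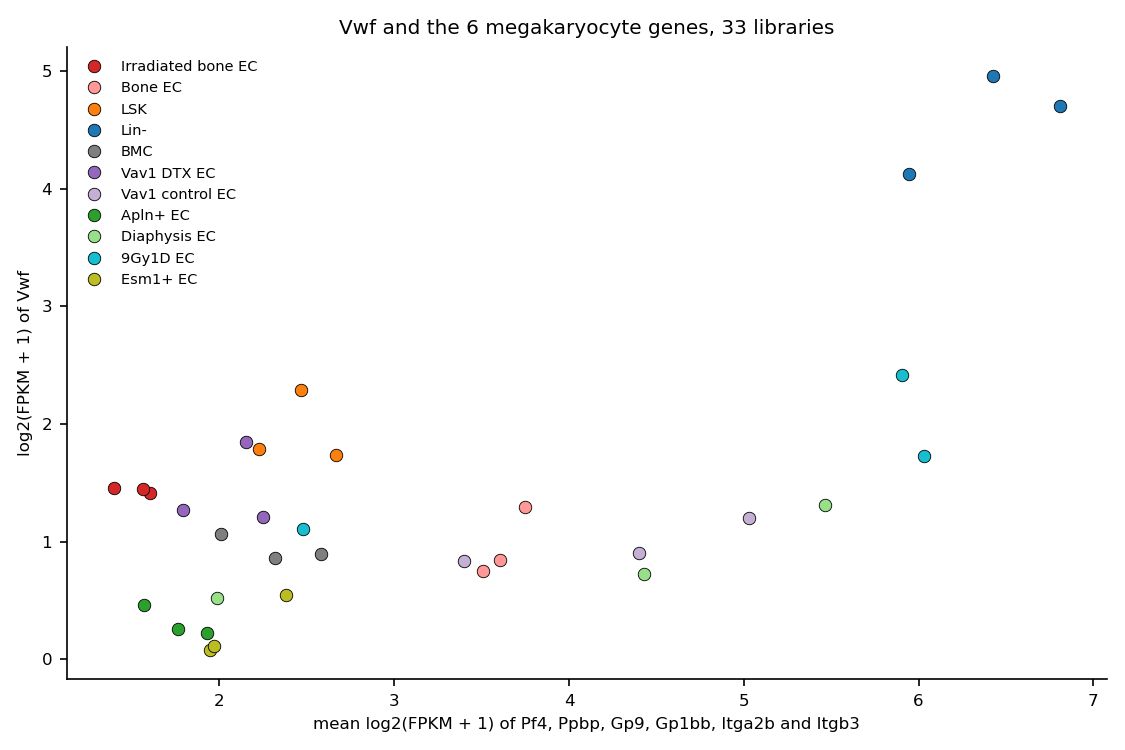
Vwf against the mean of the other 6 members, both as log2(FPKM + 1), in 33 libraries. Lin- lies highest on the Vwf axis, 9Gy1D EC replicate 1 overlaps it on the other axis, and the irradiated bone EC and Vav1 DTX EC libraries lie left of and above their own comparison groups.

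A wider set of 55 other megakaryocyte and platelet genes, in 4 lists (receptors, granule and coagulation proteins, cytoskeleton and signalling, transcription factors), was described by counts. The gene lists were chosen with earlier results of these data known, so their shares are descriptions and not independent support. In irradiated bone EC 23 of 47 tested fell, 48.9% against 19.4% of all genes, and 11 rose, 23.4% against 22.5%, which is near the share over all genes, with a median log2 difference of -0.64, against 0.06 over all genes. Tubb1, the platelet beta tubulin, fell (-2.12 ± 0.16), as did Gp5, the subunit that completes GPIb-IX-V (-1.93 ± 0.19), the thromboxane receptor Tbxa2r (-2.06 ± 0.18), and the transcription factors Gata1 (-3.04 ± 0.31) and Nfe2 (-3.85 ± 0.23). Selp, the P-selectin gene (2.34 ± 0.17), Mmrn1, multimerin (2.45 ± 0.26), and the receptor Pear1 (2.03 ± 0.24) rose, and endothelial cells make these too. Gata1 and Nfe2 are also used by erythroid cells, and F13a1 (-3.52 ± 0.38), coagulation factor XIII A, by monocytes.

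In Vav1 DTX EC 20 of 47 tested fell, 42.6% against 15% of all genes, and 3 rose, 6.38% against 11.3%, with a median of -0.60, against 0.03 over all genes. Tubb1 (-2.72 ± 0.44), Gp5 (-2.71 ± 0.54), Treml1 (-2.30 ± 0.44), Gp1ba (-1.56 ± 0.29), the GPIb chain that contacts von Willebrand factor, and the thromboxane receptor Tbxa2r (-2.60 ± 0.16) fell. Selp (1.82 ± 0.48) and the tubulin Tuba8 (1.94 ± 0.28) rose. In Apln+ EC 2 of 43 tested fell, the ADP receptor P2ry12 (-0.97 ± 0.22) and Selp (-2.34 ± 0.49), and Cd9 rose (0.95 ± 0.18). These shares, 4.65% lower and 2.33% higher, were near the 4.64% and 2.84% over all genes, and the count ran between 0 and 16 when each library was left out, 16 of them without Apln+ replicate 1.

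In 9Gy1D EC 18 of 46 tested rose relative to Esm1+ EC, 39.1% against 20.6% of all genes, and 8 fell, 17.4% against 23.1%, with a median of 0.21 against 0.00 over all genes. Without 9Gy1D replicate 3 the count was 16, 10 higher and 6 lower, and without Esm1+ replicate 2 it was 16, 11 higher and 5 lower. Myl9, a myosin light chain also made by mural cells (5.10 ± 0.34), Selp (3.88 ± 0.31), Mmrn1 (3.60 ± 0.20) and Treml1 (2.97 ± 0.87) rose. The transcription factors Gfi1b (-3.62 ± 0.39), Gata1 (-2.78 ± 0.63) and Nfe2 (-1.55 ± 0.24) fell. Gata1 was 0.503 to 7.66 FPKM in 9Gy1D EC, against 28.3 to 37.0 in Esm1+ EC. Gata1 is also an erythroid factor, and 5 of 6 erythroid genes fell in the same comparison; their part in its change was not tested. In Lin- 32 of 54 tested rose relative to BMC, 59.3% against 29.1% of all genes, and 13 fell, 24.1% against 28.4%, among them Tubb1 (4.77 ± 0.30), Treml1 (4.68 ± 0.32) and Gp5 (4.38 ± 0.18) higher and F13a1 (-3.76 ± 0.31) and Thbs1, thrombospondin (-3.47 ± 0.21), lower.

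A list of 11 partners of von Willebrand factor, chosen for Weibel-Palade bodies, its processing and its cargo, was described in the same way. In irradiated bone EC 8 of 10 tested rose, where 22.5% of all genes did, and 1 fell, led by Angpt2 (2.84 ± 0.22), Mmrn1, Selp and Edn1, endothelin (2.20 ± 0.22). Selp was 171 to 226 FPKM in irradiated bone EC and 34.7 to 46.3 in bone EC. In Vav1 DTX EC 4 of 10 rose, where 11.3% of all genes did: Edn1 (2.45 ± 0.26), Selp, Angpt2 (1.35 ± 0.29) and Cd63 (0.69 ± 0.11), and 0 fell; without Vav1 control replicate 1 or 2 only 2 were called. In 9Gy1D EC 6 of 10 rose, where 20.6% of all genes did, among them F8, the coagulation factor that von Willebrand factor carries (3.94 ± 0.25), and 2 fell, where 23.1% did. In Apln+ EC F8 (-2.10 ± 0.38) and Selp fell and Plat, tissue plasminogen activator, rose (3.53 ± 0.54), 2 and 1 of 10 where 4.64% and 2.84% of all genes did, while between 0 and 6 partners were called when each library was left out, 6 of them without Apln+ replicate 1. Selp and Mmrn1 belong to both the wider set and this list.

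**Figure D5:**
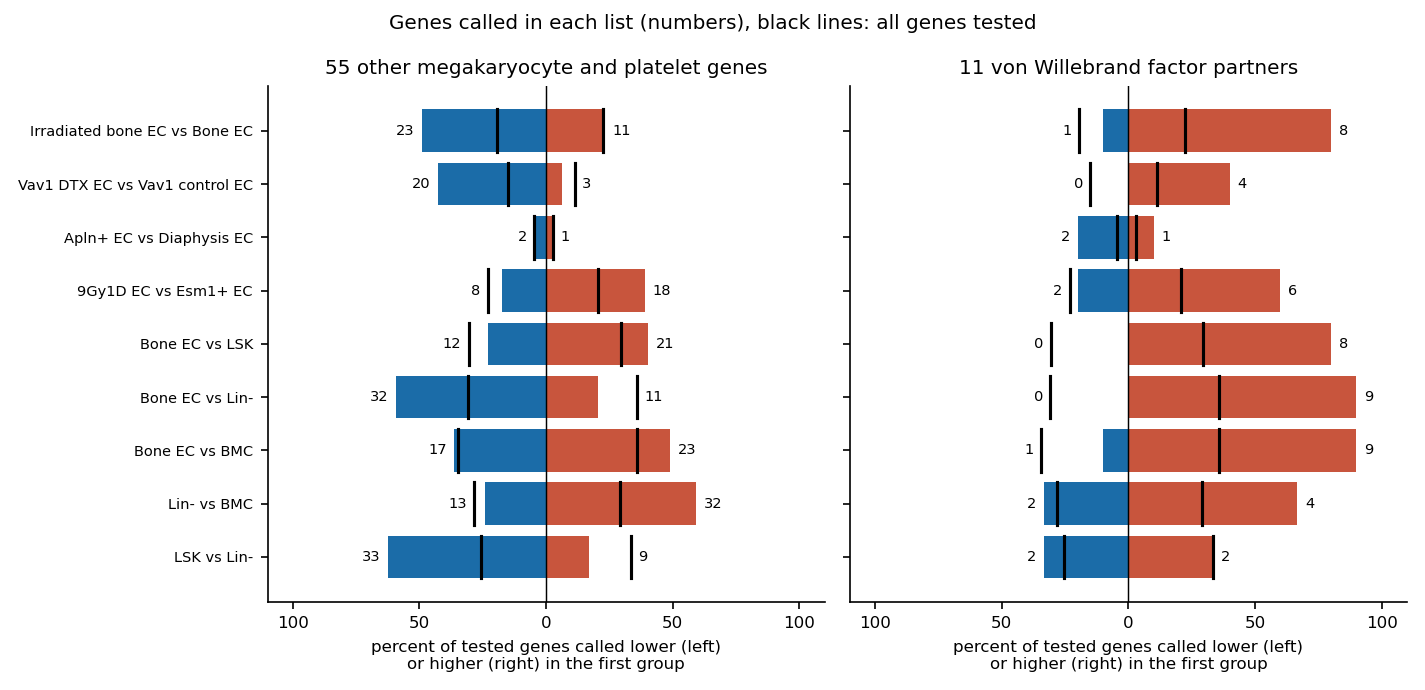
Percent of tested genes called lower (left, blue) or higher (right, red) in the first group of each comparison, with the number of genes beside each bar, for the 55 other megakaryocyte and platelet genes and for the 11 von Willebrand factor partners; black lines give the percent over all genes tested. In irradiated bone EC 23 of the first set were lower and 8 of the second higher.

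Over the 15 libraries of the first table, the genes most like the mean of the 6 megakaryocyte members, among 10006 candidates, were Slc25a21 and Tubb1 (Pearson r on the log2 scale, 0.989 for both), Sh2d4a (0.983), Gp5 (0.975) and Hars (0.975). Tubb1 averaged 0.0608 ± 0.105 FPKM in irradiated bone EC, 3.60 ± 0.436 in bone EC, 43.4 ± 16.4 in Lin- and 0.547 ± 0.119 in BMC. Those most like Vwf were Serpina3b (0.978), Gucy1b3 and Pde3a (0.975 each), Src and Panx3 (0.970 each). All 5 had their highest mean in Lin-, between 5.14 and 6.63 FPKM, which the choice itself favours. Vwf was highest in Lin-, and candidates needed a mean of at least 5 FPKM in at least 1 group. Serpina3b was listed at 0 in irradiated bone EC and BMC. These are descriptions over libraries that share groups and kits. Among the members themselves r ran between 0.624 (Pf4 and Itgb3) and 0.940 (Ppbp and Gp1bb); Vwf was nearest to Itga2b (0.925) and Gp9 (0.828).

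The genes next to Pf4 and Ppbp on chromosome 5 were at low levels in most groups. Cxcl5, a neutrophil-attracting chemokine upstream of Ppbp, was at most 2.40 FPKM in any library, and Cxcl15 at most 0.821. Cxcl3, a chemokine downstream of Pf4, was 5.23 to 60.3 FPKM in Vav1 DTX EC and 0.196 to 2.27 in Vav1 control EC, the comparison in which Ppbp and Pf4 fell.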

How the data were processed

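RNA was sequenced from 33 libraries in 11 groups of 3. BMC and Lin- libraries were made with TruSeq Stranded Total RNA and the others with SMART-Seq v4 and Nextera XT, per the labels' protocols. The authors deposited 4 tables of FPKM values, each normalized separately. TopHat2 (2.1.1), the mm10 build, DESeq2 (1.18.1), the counter HTSeq (0.6.1) and the converter bcl2fastq (2.19.1.403) are named, without their order, per the submitters' processing notes; the annotation is not given in the sources used here. Of 38926 genes per table, 27 whose names had turned into dates were left out, and 0 value columns lacked a sample. Whole reads were recovered from the steps of the FPKM values for 38899 genes (100%, within 0.005 of a whole read), which gave depth, exact counting intervals at 95% and the count-based alternative. For 18246 genes the exon length gave whole reads. For the others a length that did so was searched for, or all values were 0, so the 100% is no check. Reads of Pf4, Ppbp, Gp9 and Gp1bb rest on fitted lengths of 586, 1080, 811 and 1881 bases, against annotated 721, 1083, 881 and 2087. Intervals cover counting error only.

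Tests used limma 3.58.1 (R 4.3.3, moderated with a mean trend) on log2(FPKM + 1), over genes that reached 1 FPKM in 3 or more libraries of a comparison, two-sided, Benjamini-Hochberg adjusted over all genes tested, at a threshold of 0.05. This scale understates the change of genes near 0. Differences and their standard errors (±) are on it, and ± beside a mean FPKM is the SD of 3 libraries. Groups came from the titles and characteristics in the labels. Members and gene lists were chosen with earlier results of these data known. Text names all 7 members, up to 4 called genes per list with the largest differences, and the 5 genes most alike per target, among genes with a mean of at least 5 FPKM in at least 1 group. The scripts were tested on simulated data. Alternatives were leaving out each library, a replicate block, voom on recovered reads, TPM, scaling by median ratios, a fit per whole table, a fit without the trend, a stricter filter (mean of 5 FPKM) or none, and pseudocounts of 5 and 0.1; averaging Esm1+ replicates 1 and 2 was added after seeing the data.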

Additional observations from a re-analysis of the deposited data

How the results depend on the processing

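Of 1101 values of members under the alternatives, 1032 kept their direction and side of the threshold, 32 lost a call, 14 gained one and 23 changed sign. The call counts of the 7 members stayed within 1.5 times of the reported count in 158 of 167 cases. Requiring a mean of at least 5 FPKM left 2 members called after irradiation, 3 in bone EC against LSK and 3 against BMC, where the others called before were no longer tested. It left 2 in 9Gy1D EC against Esm1+ EC, where Vwf was no longer tested and Gp1bb lost its call (adjusted p = 0.051). With voom on recovered reads, 2 were called in 9Gy1D EC against Esm1+ EC; the cause was not tested. Leaving out each library gave 4 to 5 members called after irradiation, 3 to 5 in Vav1 DTX EC, 0 to 2 in Apln+ EC and 2 to 7 in 9Gy1D EC. It gave 0 to 1 for the irradiation difference minus the Vav1 DTX difference, and the counts of 6, 7, 5, 7 and 7 in the other comparisons did not move.

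The sign changes were all in differences that had not passed: Itga2b in bone EC against BMC, and Pf4, Ppbp, Itga2b, Gp9 and Vwf in the difference of differences. Itga2b in bone EC against BMC became 0.20 with TPM, 0.17 with voom and between -0.27 and 0.05 when each library was left out. In the irradiation difference minus the Vav1 DTX difference, Gp9 became -0.17 with a pseudocount of 0.1 and -0.20 with voom, Itga2b 0.10 with a pseudocount of 5, and Vwf -0.01 with a pseudocount of 5, -0.06 with median-of-ratios scaling and -0.14 with voom. When each library was left out, that difference ran -0.88 to 0.11 for Pf4, -0.33 to 1.5 for Ppbp, -0.34 to 0.22 for Itga2b and -0.10 to 0.22 for Vwf; the cause was not tested.

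TPM moved the median gene to 0.30 after irradiation, 0.26 in Vav1 DTX EC, -0.71 in bone EC against LSK and 0.91 in LSK against Lin-. The share of calls that were higher was then 68% in place of 53.8%, 68.7% in place of 43%, 22.8% in place of 49% and 85.7% in place of 56.7%; it was 64% in place of 47.2% in 9Gy1D EC, 68.1% in place of 50.8% in bone EC against BMC and 27.7% in place of 38% in Apln+ EC. Over all genes, 890 calls in Apln+ EC became 293 to 3989 and 3065 in Vav1 DTX EC became 1657 to 4782 when each library was left out. A mean of at least 5 FPKM gave 445 in Apln+ EC, 5083, 5624 and 6069 in place of 8608, 8822 and 9287 in bone EC against LSK, Lin- and BMC, and 4675 in place of 8175 in LSK against Lin-.

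Same-numbered replicates did not deviate together, with correlations between -0.219 and 0.332 and no comparison above 0.1 in all 3 pairs, and no sample set correlated best with its own number throughout. With the replicate block, 5 members in place of 6 were called after irradiation, without Itga2b (adjusted p = 0.081), 4 in Vav1 DTX EC, 0 in Apln+ EC, 4 in 9Gy1D EC, 6, 7 and 5 in bone EC against LSK, Lin- and BMC, 7 in Lin- against BMC, 7 in LSK against Lin- and 0 for the difference of differences, whose calls over all genes were 2399 in place of 3684. Depth limits Ppbp, Gp9 and Gp1bb most, with 10, 4 and 3 reads in all in irradiated bone EC.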
